A study of Homo sapiens with 16 samples.

Results

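EGFR, the gene of the epidermal growth factor receptor, and EGFR-AS1, a long non-coding RNA gene on its opposite strand, were described across 8 lists of chromatin regions from PC9 cells. The members were every region to which the submitters assigned the gene name EGFR or EGFR-AS1. There were 80 such regions among 59617 in all lists, and 78 of the 80 carried the name EGFR. The cells were PC9, a human cell line from a non-small cell lung cancer whose EGFR carries an activating mutation, and were labelled wild type. The cells received osimertinib, an inhibitor of mutant EGFR, or DMSO as vehicle, and 1 library was made for each of KDM1A, H3K4me1, H3K4me3 and H3K9me3 under each treatment. For these libraries the sources used here give neither the type of binding assay nor the dose and duration of osimertinib.

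EGFR is a receptor tyrosine kinase of the cell surface. Ligands such as TGF-alpha and amphiregulin pair the receptors, and the adaptors GRB2 and SHC1 pass the signal on to the RAS and MAP kinase pathway. H3K4me3 marks active gene starts, H3K4me1 marks enhancers and the flanks of promoters, and H3K9me3 marks silent chromatin. KDM1A (LSD1) is an enzyme that takes methyl groups from histone H3, including the mono- and dimethyl groups of lysine 4. The first intron of EGFR is long and is known to hold enhancer elements.

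Each list consisted of regions 2 kb wide on GRCh38 (hg38), each with a height called signal. Regions were ranked by signal within a list, with 1 the strongest. Signal was not compared between lists, because its scaling is not stated. With 1 library per group, no difference between treatments has a replicate check and no test between treatments was possible. The lists held 13285 regions with osimertinib and 11621 with vehicle for H3K4me3, 6515 and 9761 for H3K4me1, 2073 and 2749 for H3K9me3, and 8882 and 4731 for KDM1A. H3K4me3 promoter regions were listed with both treatments for 6 of the 9 epithelial and lung markers, namely EPCAM, CDH1, KRT7, KRT8, KRT18 and KRT19. The lung markers NKX2-1, NAPSA and SFTPB had 0 regions in every list. H3K4me3 was listed at 0 of the 6 fibroblast and endothelial markers with either treatment.

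RefSeq (GRCh38.p14) places EGFR at chr7:55019017-55211628 on the plus strand and EGFR-AS1 at chr7:55179750-55188949, near the far end of EGFR. The RefSeq promoter table held 2 windows for EGFR, and EGFR-AS1 was not matched. One belongs to the main start of the gene and the other to a start inside the first intron, about where the submitters' annotation also has a transcript. Both are shown because the chromatin marks differed between them. Each sequence is the 250 bases before the start, 5′ to 3′, from RefSeq. Capitals mark the GC box, GGGCGG on either strand, in the first sequence, and the AP-1 motif, TGANTCA on either strand, in the second.
Main start, chr7:55018767-55019016, plus strand: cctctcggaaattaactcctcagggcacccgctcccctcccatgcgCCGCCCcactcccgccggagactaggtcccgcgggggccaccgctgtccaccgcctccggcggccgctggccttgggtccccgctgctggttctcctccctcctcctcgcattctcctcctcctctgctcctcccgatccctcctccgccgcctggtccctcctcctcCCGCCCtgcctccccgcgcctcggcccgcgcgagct
Internal start, chr7:55109589-55109838, plus strand: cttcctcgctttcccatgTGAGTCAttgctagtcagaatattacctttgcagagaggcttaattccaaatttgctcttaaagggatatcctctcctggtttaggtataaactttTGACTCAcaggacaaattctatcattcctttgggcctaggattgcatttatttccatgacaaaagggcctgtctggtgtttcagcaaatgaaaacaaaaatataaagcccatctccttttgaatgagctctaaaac

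The main window was 73.6% G and C, with 25 CG pairs, and the internal window was 38.8% G and C, with 1 CG pair. The median of the 35116 RefSeq windows of this length was 58.0%. The GC box, a sequence that SP1 can bind, occurred 2 times in the main window and 0 times in the internal window. At least 1 GC box was present in 42.6% of all windows. The AP-1 motif occurred 2 times in the internal window and 0 times in the main window. It was present at least once in 6.57% of all windows, and 2 or more times in 0.402%. The letters TATAAA, searched on both strands, occurred 2 times in the internal window and 0 times in the main window, and were present in 10.7% of all windows. The matches do not overlap each other, and the motifs were chosen after the sequences were seen. A match of letters is not a binding site.

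H3K4me3 stood at the main start with both treatments, among the strongest regions of its lists. With osimertinib the region at chr7:55019554-55021553 had a signal of 52.0 and ranked 55 of 13285. With vehicle the region at chr7:55018893-55020892 had a signal of 167 and ranked 23 of 11621. The 2 regions shared 1339 bp, but their positions differed relative to the main start. The osimertinib region began 537 bp after the RefSeq start and lay wholly inside the gene. The vehicle region began 124 bp before the start and covered the last 124 bases of the main sequence printed above, which hold 1 of its 2 GC boxes. At the internal start, the nearest H3K4me3 region lay 40649 bp away from the printed window with osimertinib and 69090 bp away with vehicle.

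The H3K4me3 list with osimertinib held 13 regions at EGFR, and the list with vehicle held 3. All carried the name EGFR. The vehicle regions were that at the main start, a region about 4 kb before it, at chr7:55013955-55015954 and ranked 4400, and a region in the first intron, at chr7:55038499-55040498 and ranked 11364. The osimertinib regions reached from 38.3 kb before the start to 49.9 kb after it, while the vehicle regions stayed within 5.07 kb before and 21.5 kb after. With osimertinib 6 regions lay before the start and 7 after it. Apart from the region at the start they were of middling strength, with ranks between 2248 and 11142. The share of the list at EGFR was 0.0979% with osimertinib (exact 95% interval 0.0521 to 0.167) and 0.0258% with vehicle (0.00532 to 0.0754). These intervals cover counting error only, and neighbouring regions are not independent.

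The ratio of osimertinib to vehicle was 4.33 at EGFR. Of 3143 genes with at least 3 H3K4me3 regions over both lists, 51.6% had at least 1.5-fold more with osimertinib. The place of EGFR among genes also differed. With osimertinib 4 of 7958 genes had more H3K4me3 regions than EGFR, namely BCOR with 18, KDM2A and TXNRD1 with 16 each, and TSC22D2 with 14. With vehicle 224 of 8352 genes had more than its 3 regions, led by BCOR with 10. Promoter annotations were given to 2 of the 13 osimertinib regions and 1 of the 3 vehicle regions. The whole lists had 73.5% and 90.5% promoter regions.

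All 3 vehicle H3K4me3 regions at EGFR overlapped an osimertinib region, against 59.6% of the whole vehicle list. In the other direction 4 of 13 osimertinib regions overlapped a vehicle region, against 52.0% of the whole list. The 9 regions without a vehicle counterpart lay between 2751 and 31206 bp from the nearest vehicle region.

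**Figure D1:**
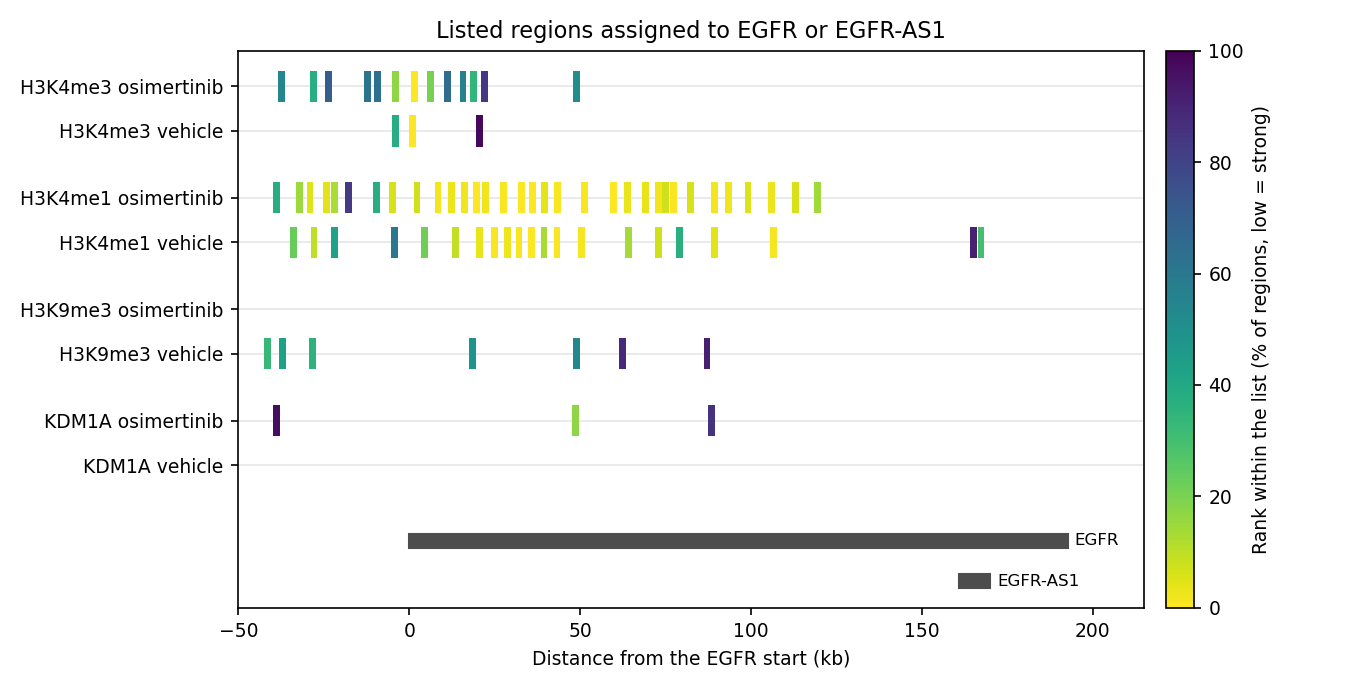
Regions assigned to EGFR or EGFR-AS1 in the 8 lists, drawn by distance from the EGFR start in kb, with bars below for the extent of both genes in RefSeq and colour for the rank of a region as a percentage of its list. H3K4me1 spans the upstream flank and the first intron with both treatments, H3K4me3 has 13 regions with osimertinib and 3 with vehicle, H3K9me3 is listed with vehicle only and KDM1A with osimertinib only.

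H3K4me1 formed the longest chain of regions at EGFR, over the upstream flank and the first intron. The list with osimertinib held 33 regions, all named EGFR. The list with vehicle held 21, of which 19 were named EGFR and 2 EGFR-AS1. The osimertinib chain ran from 39.9 kb before the start to 120 kb after it, and its regions covered 41.2% of that stretch. The vehicle chain of EGFR ran from 34.9 kb before to 108 kb after and covered 26.7%. Of the 33 osimertinib regions, 21 were annotated to intron 1 of 25, 8 to intergenic sequence before the gene, 3 to promoters and 1 to an exon of a short transcript. Of the 21 vehicle regions, 13 lay in intron 1, 4 in intergenic sequence, 2 at promoters, 1 on such an exon and 1 in intron 19 of 25.

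The strongest H3K4me1 region at EGFR lay in the same part of the first intron with both treatments. With osimertinib the top region, chr7:55054083-55056082, had a signal of 28.0 and ranked 38 of 6515. With vehicle the top region, chr7:55053712-55055711, had a signal of 32.5 and ranked 50 of 9761. These 2 regions shared 1629 bp, about 36 kb from the start. Regions about 32 kb and 43 kb from the start ranked 48 and 62 with osimertinib, and 96 and 89 with vehicle. Between them, about 39.5 kb from the start, a weaker region ranked 271 with osimertinib and 1285 with vehicle. An osimertinib region at chr7:55077722-55079721, about 60 kb from the start, ranked 44 and had no vehicle region within 2461 bp.

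EGFR regions ranked high in both H3K4me1 lists. With osimertinib 27 of 33 were in the top 10% of the list, and with vehicle 11 of 21. The median rank was 229 with osimertinib and 877 with vehicle, at 3.51% and 8.98% of the list. The regions differed by position. Before the start the median lay at 14.0% of the list with osimertinib and 33.0% with vehicle. Within the first 50 kb after the start it lay at 1.72% with osimertinib and 2.43% with vehicle. From 50 to 100 kb it lay at 2.23% of the list for 11 osimertinib regions and at 7.20% for 5 vehicle regions. From 100 to 150 kb the order was the other way, with 5.88% for 3 osimertinib regions and 1.30% for 1 vehicle region. Beyond 150 kb only the 2 vehicle regions of EGFR-AS1 were listed, at 60.3%.

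**Figure D2:**
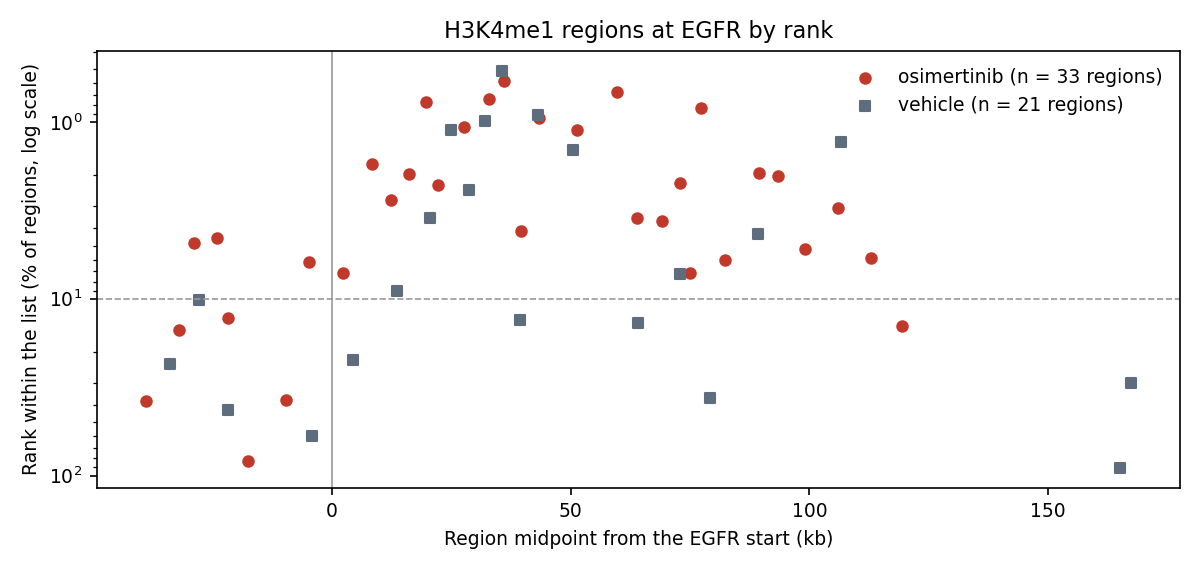
Rank of each H3K4me1 region at EGFR or EGFR-AS1 as a percentage of its list (log scale, strong regions at the top) against the distance of its midpoint from the EGFR start in kb, with osimertinib as circles and vehicle as squares. The strongest region of each list lies about 36 kb after the start, and 27 of 33 osimertinib regions and 11 of 21 vehicle regions lie above the dashed line at 10%.

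The difference in H3K4me1 depended on what was counted. A deposited label repeats the width 2000 once or more per region, and its meaning is not stated. In the H3K4me1 and H3K4me3 lists, the shortest distances to a neighbour were larger for regions with longer labels. In the osimertinib H3K4me1 list the nearest region start was at least 2121 bp away for all but 2% of the regions with 1 repeat, and 4175 bp away for those with 5 or more. Summed over EGFR and EGFR-AS1, the labels held 86 repeats with osimertinib and 82 with vehicle. The ratio of osimertinib to vehicle was 1.57 for the number of regions and 1.05 for the summed labels. The longest vehicle labels had 13 repeats, at chr7:55124624-55126623, and 10, at chr7:55068430-55070429. The longest osimertinib label had 8. For H3K4me3 the labels held 24 repeats with osimertinib and 3 with vehicle, so that difference was larger by this measure.

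**Figure D3:**
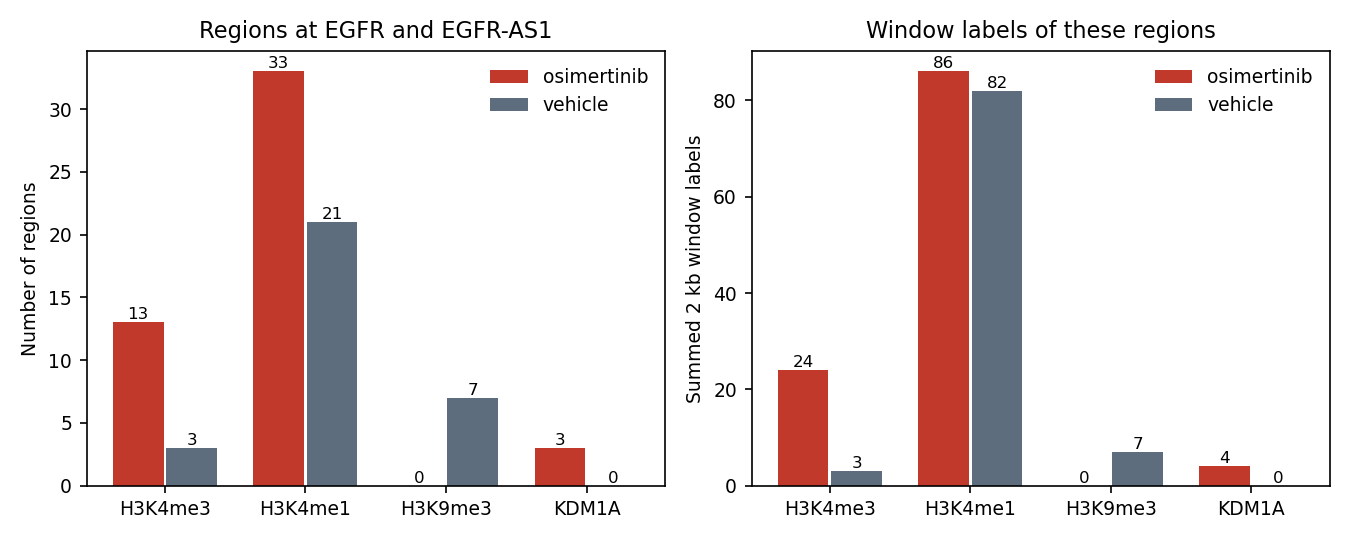
Number of regions assigned to EGFR or EGFR-AS1 (left) and the summed repeats of their deposited labels (right) for the 4 targets, with osimertinib left of vehicle, 1 library per bar. The labels are drawn as window labels, but their meaning is not stated. For H3K4me1 the numbers of regions are 33 and 21 and the summed labels 86 and 82, while for H3K4me3 they are 13 and 3, and 24 and 3.

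H3K4me1 positions at EGFR were mostly held in common by the treatments. Of the vehicle regions, 17 of 21 overlapped an osimertinib region, against 26.6% of the whole vehicle list. Of the osimertinib regions, 18 of 33 overlapped a vehicle region, against 39.7% of the whole list, and 22 lay within 1 kb of one. A chain of closely spaced regions raises such shares, and that part was not tested. The whole H3K4me1 list was shorter with osimertinib, at 6515 regions against 9761 with vehicle. EGFR took up 0.507% of it with osimertinib (exact 95% interval 0.349 to 0.711), and with EGFR-AS1 0.215% with vehicle (0.133 to 0.329). Of 1590 genes with at least 3 H3K4me1 regions, 26.1% had at least 1.5-fold more with osimertinib. The ratio of 1.57 for EGFR and EGFR-AS1 was close to that threshold, and fell below it when regions were counted by position over the gene (1.47) or merged within 1 kb (1.45). Only BCAR3 with 42 and PVT1 with 40 had more H3K4me1 regions than EGFR among 2602 genes with osimertinib. With vehicle 17 of 4346 genes had more, led by AC140113.4 with 45, BCAR3 with 43 and TNS3 with 37.

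The place was also high among genes of like length. Among 2583 protein-coding RefSeq genes of 100 to 300 kb, counted by position over the gene, EGFR had 25 H3K4me1 regions with osimertinib and 17 with vehicle. With osimertinib 8 of these genes had more, and with vehicle 25 had more. With osimertinib 15.9% of them had any H3K4me1 region, and with vehicle 19.2%.

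Near the main start H3K4me1 was listed on both sides of the H3K4me3 region. Before the start, chr7:55013135-55015134 ranked 405 with osimertinib and chr7:55013816-55015815 ranked 5871 with vehicle. The latter was the vehicle region nearest the printed main window, at 2951 bp. On the gene side H3K4me1 and H3K4me3 overlapped with osimertinib. With osimertinib the nearest region, chr7:55020309-55022308, began 1292 bp after the RefSeq start and ranked 464. With vehicle the nearest region on that side, chr7:55022528-55024527, lay 219 bp beyond the end of the osimertinib region and ranked 2173. At the internal start both lists held a strong region just before the printed sequence. With osimertinib chr7:55107413-55109412 ranked 127 and ended 176 bp before the window, and with vehicle chr7:55107345-55109344 ranked 420 and ended 244 bp before it. The 2 regions shared 1932 bp. A second osimertinib region, chr7:55111499-55113498, ranked 132 on the other side of the start and had no vehicle counterpart within 2154 bp. In the whole lists 28.7% of H3K4me1 regions with osimertinib and 44.0% with vehicle were promoter regions, against 3 of 33 and 2 of 21 at EGFR.

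The far part of the gene was almost empty. Beyond chr7:55139349, the end of the last osimertinib H3K4me1 region, the next member region began 43.7 kb later. There, EGFR-AS1 had 2 H3K4me1 regions with vehicle and 0 in each of the other 7 lists. The region at chr7:55183037-55185036, in intron 19 of EGFR and inside EGFR-AS1, ranked 8846 of 9761. The region at chr7:55185291-55187290, annotated as a promoter as it lay 1644 bp from an EGFR-AS1 start, ranked 2932. The weaker of the 2 lay beyond the number of regions in the osimertinib list. Because the 2 genes overlap and the libraries do not tell strands apart, these regions cannot be assigned to EGFR-AS1 rather than EGFR.

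H3K9me3 was listed at EGFR with vehicle and not with osimertinib. With osimertinib 0 of 2073 regions were at EGFR, which at a limit of 3 counts allows a share of up to 0.145%. With vehicle there were 7 of 2749, a share of 0.255% (exact 95% interval 0.102 to 0.524). The limit of 0.145% lies inside this interval, but that comparison is not a test of a difference in share. With 1 library per treatment and neighbouring regions that are not independent, no such difference could be tested. The 7 ranked between 904 and 2504, with a median of 1325, and none was in the top 10% of the list. The strongest, chr7:54976507-54978506, lay about 42 kb before the start. Of the 7, 3 lay before the gene, 3 in the first intron and 1 at the promoter annotation of the internal start. None overlapped an osimertinib H3K9me3 region, and the nearest was 478225 bp away. In the whole vehicle list 26.0% overlapped one. With 0 osimertinib regions at EGFR, the missing overlap is no separate result. Of 497 genes with at least 3 H3K9me3 regions, 50.9% had at least 1.5-fold fewer with osimertinib. Within 1 Mb of EGFR, H3K9me3 regions not assigned to EGFR or EGFR-AS1 numbered 7 with osimertinib and 15 with vehicle. With vehicle 39 of 1334 genes had more H3K9me3 regions than EGFR, led by HEPH with 18. Among the whole vehicle list 24.8% were promoter regions.

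The vehicle H3K9me3 regions coincided in part with H3K4me3 regions of osimertinib cells. Of the 7, 4 overlapped an osimertinib H3K4me3 region, by 1846, 1655, 1650 and 1992 of 2000 bp, against 15.1% of the whole vehicle H3K9me3 list. The closest match lay at chr7:55066932-55068931 for vehicle H3K9me3, ranked 1467 of 2749, and at chr7:55066940-55068939 for osimertinib H3K4me3, ranked 6827 of 13285. Of the same 7, 4 overlapped an osimertinib H3K4me1 region (8.26% of the whole list) and 3 an osimertinib KDM1A region (18.0%). At an overlap of at least 1000 bp, 4 of 7 remained for H3K4me3, against 11.2% of the whole list. By that measure 1 of 7 remained for H3K4me1 (6.55%) and 1 of 7 for KDM1A (12.7%). A count of 1 in 7 cannot be told from such shares. Within the vehicle libraries 3 of 7 overlapped H3K4me1 (5.71% of the whole list), and 1 of 7 overlapped H3K4me3 (4.91%), by 17 bp. The comparisons with osimertinib lists cross both target and treatment. Whether the same reads or the same DNA lie behind the matches was not tested. The H3K4me1 regions at EGFR covered 41.2% of the stretch they span with osimertinib and 26.7% with vehicle. The osimertinib H3K4me3 regions covered 29.5% of theirs. Such coverage raises the share of overlaps above that of a whole list, and its part here was not tested.

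KDM1A was listed at EGFR with osimertinib and not with vehicle. The 3 osimertinib regions were chr7:54979200-54981199, ranked 8601 of 8882, chr7:55066589-55068588, ranked 1504, and chr7:55106559-55108558, ranked 7568. Thus 2 of the 3 were among the weakest of the list. Their share was 0.0338% (exact 95% interval 0.00697 to 0.0987). With vehicle 0 of 4731 regions were at EGFR, which at a limit of 3 counts allows a share of up to 0.0634%. This limit lies inside the interval for osimertinib, which is not a test. With 1 library per treatment no difference in share could be tested. None of the 3 overlapped a vehicle region, while 5.07% of the whole osimertinib list did. With 0 vehicle regions at EGFR, this too is no separate result. Of 1209 genes with at least 3 KDM1A regions, 76.1% had at least 1.5-fold more with osimertinib. The region at chr7:55106559-55108558 was annotated as a promoter of the internal start, like 15.4% of the whole list for other starts.

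KDM1A regions lay near those of the H3K4 marks. Of the 3, 2 overlapped an osimertinib H3K4me1 region (2.77% of the whole list), by 1952 bp at the upstream site and 1146 bp at the internal start. Of the 3, 2 overlapped an osimertinib H3K4me3 region (2.42%), by 451 bp upstream and by 1649 bp in the first intron. At the intron site, about 49 kb from the start, the osimertinib H3K4me1 region lay 702 bp beyond the KDM1A region. The osimertinib H3K4me1 regions at EGFR covered 41.2% of the stretch they span, and the H3K4me3 regions 29.5% of theirs. Such dense coverage raises the share of overlaps above that of a whole list, and its part here was not tested.

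H3K4me3 and H3K4me1 shared sites at EGFR more often with osimertinib than the whole lists did. With osimertinib 10 of 13 H3K4me3 regions overlapped an H3K4me1 region, against 7.19% of the whole H3K4me3 list, and 11 of 33 H3K4me1 regions overlapped H3K4me3, against 14.4%. With vehicle 2 of 3 H3K4me3 regions overlapped H3K4me1 (14.3%), and 2 of 21 H3K4me1 regions overlapped H3K4me3 (16.8%). The H3K4me3 region at the main start overlapped H3K4me1 with osimertinib but not with vehicle. The osimertinib H3K4me1 regions covered 41.2% of their stretch, and the part of this coverage in the share was not tested.

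**Figure D4:**
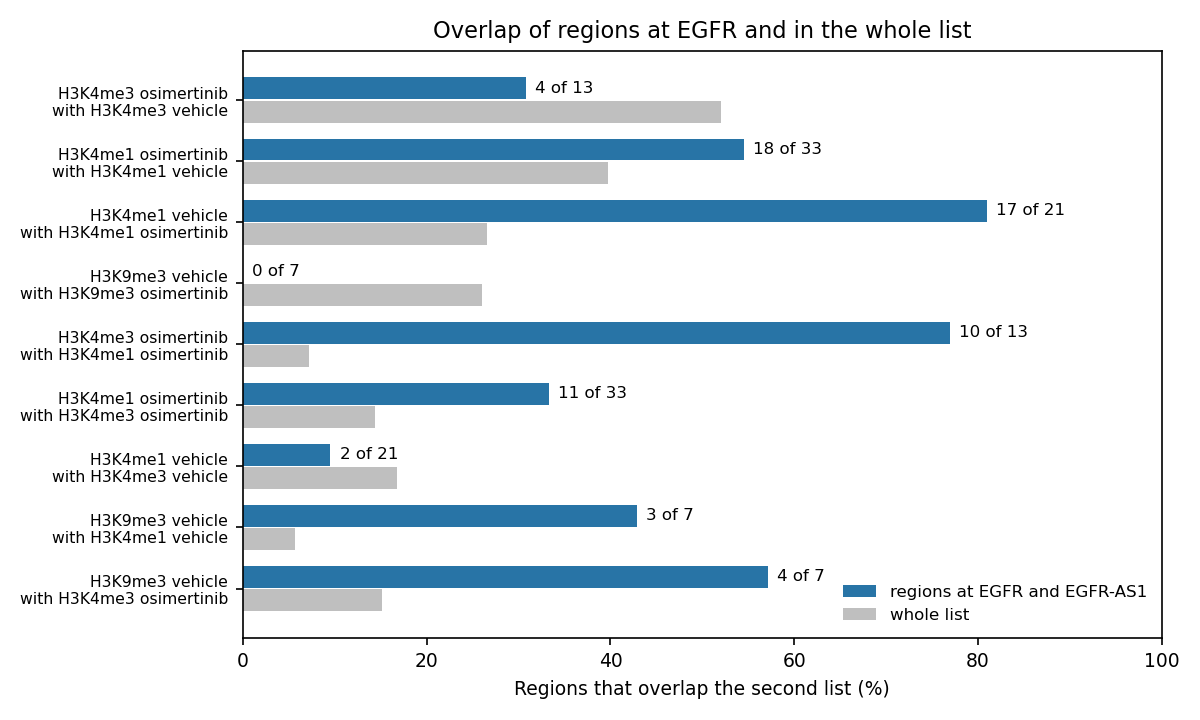
Share of regions that overlap a second list by at least 1 bp, for the regions at EGFR and EGFR-AS1 (upper bar of each pair, with counts) and for the whole first list (lower bar). At EGFR 17 of 21 vehicle H3K4me1 regions overlap an osimertinib region, 10 of 13 osimertinib H3K4me3 regions overlap H3K4me1, and 4 of 7 vehicle H3K9me3 regions overlap an osimertinib H3K4me3 region.

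When the regions of all lists were chained by overlap, the locus held 37 sites. Of these, 24 were seen for 1 target, 8 for 2, 3 for 3 and 2 for all 4. The 2 sites with all 4 targets were chr7:54979152-54982902, about 38 kb before the start, and chr7:55066589-55071290, about 50 kb after it. At both, H3K4me1, H3K4me3 and KDM1A were listed with osimertinib and H3K9me3 with vehicle, and at the second H3K4me1 was listed with vehicle too. At the second, the osimertinib H3K4me1 region overlapped only the vehicle H3K4me1 region. It lay 351 bp from H3K4me3, 359 bp from H3K9me3 and 702 bp from KDM1A. How common such chained sites are elsewhere was not tested.

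The surroundings of EGFR were also rich in regions. Within 1 Mb on either side, KDM1A had 27.4 regions per Mb with osimertinib and 5.93 with vehicle, against 5.99 and 2.72 on the rest of chromosome 7. Most of the 60 osimertinib KDM1A regions in this stretch belonged to other genes, with 11 each at LINC01445 and AC092848.1, 8 at AC006971.1 and 3 at EGFR. H3K4me1 was different, since 33 of 45 regions there with osimertinib and 21 of 31 with vehicle were at EGFR or EGFR-AS1. Outside these, VOPP1 had 6 H3K4me1 regions with osimertinib and 7 with vehicle. All 8 lists had more regions per Mb near EGFR than on the rest of the chromosome, the smallest gap being 3.19 against 1.62 for H3K9me3 with osimertinib. This held in all 8 lists also with the regions of EGFR and EGFR-AS1 left out. For H3K4me3 with osimertinib the numbers were then 7.75 against 4.27. The number of DNA copies of this stretch in the cells was not examined here, and its part in these numbers was not tested. The IgG libraries, which would show how many reads the locus draws without a specific antibody, were not analysed here.

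Of 18 receptors, ligands, adaptors and regulators that are relatives or partners of EGFR, 9 had an H3K4me3 promoter region with each treatment. The share of all genes with such a region was not counted. By a different measure, any H3K4me3 region over the gene, 36.2% of the 2583 genes of 100 to 300 kb had one with osimertinib. With vehicle it was 47.1%. Among the receptors, ERBB2 had 2 H3K4me3 regions with osimertinib and 3 with vehicle, ERBB3 had 5 and 3 in the same order, and ERBB4 had 0 in every list. Among the 8 ligands TGFA alone had H3K4me3, with 3 regions under osimertinib and 1 under vehicle. TGFA, which codes for TGF-alpha, also came closest to EGFR in H3K4me1, with 9 regions under osimertinib and 10 under vehicle. Of the other ligands AREG, the amphiregulin gene, had 1 H3K4me1 region with osimertinib, and EREG and BTC had 1 KDM1A region each with vehicle. ERRFI1, whose product inhibits EGFR, had 4 H3K4me3 regions with osimertinib and 1 with vehicle, and 3 H3K4me1 regions with osimertinib and 6 with vehicle. GRB2, SHC1, SOS1, GAB1 and CBL had between 1 and 3 H3K4me3 regions in each list, and LRIG1 had 0. H3K9me3 was listed at 0 of the 18 genes with either treatment. It was rare in general. Of the 2583 genes of 100 to 300 kb, counted by position, 1.39% had any with osimertinib and 3.10% with vehicle.

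The genes most like EGFR in their numbers of regions over the 8 lists were PHLDB2, ARID5B, TXNRD1, CDC42EP3 and TRIO, by the distance between log2(number of regions + 1). PHLDB2 was nearest, at a distance of 1.38 on that scale. It had 7 H3K4me3 regions with osimertinib and 2 with vehicle, 29 and 22 for H3K4me1, 0 and 3 for H3K9me3, and 3 and 0 for KDM1A, in the same order. ARID5B followed at 2.29, and TXNRD1, CDC42EP3 and TRIO lay between 3.16 and 3.23. EGFR's own values in this order were 13 and 3, 33 and 19, 0 and 7, and 3 and 0.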

How the data were processed

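The 8 tables of annotated regions came from 1 library per target and treatment. Per the submitters' processing notes the build was GRCh38 (hg38) and Bowtie2 2.3.4, HISAT2 and featureCounts were used, without roles. No source used here names the peak caller, control or threshold. In the deposited tables the signal is a height per region of unknown scaling, used within a list only. Another deposited column gives the signed distance in bp to a transcript start, per the file headers. The repeated label stands under a header that does not describe it. Lists were not pooled. Since the read depth is unknown, the intervals rest on numbers of regions alone.

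Members were taken by gene name. Members and gene lists were chosen with earlier results of these data known. Overlaps needed 1 bp. The overlaps of 32 list pairs equalled those of bedtools 2.31.1, and the method was tested on simulated regions with known overlaps. A promoter region was annotated within 3 kb of a start. Genes were counted by gene ID, and intervals are Clopper-Pearson at 95%. Named genes followed a rule: 18 family and pathway genes, neighbours within 1 Mb, the 5 genes most like EGFR and up to 5 genes with as many regions. Of the neighbours, only those with the most regions are named. The tools were pandas 2.3.3, numpy 2.4.6 and scipy 1.17.1 under Python 3.11.15, with figures from matplotlib 3.10.9. The 6 RNA and 2 IgG samples were not analysed here. One marker result is not reported here.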

Additional observations from a re-analysis of the deposited data

How the results depend on the processing

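Of 114 alternative values, 44 were 0 where the reported value was also 0 and say nothing of stability. Of the other 70, 49 stayed within 1.5 times of the reported value. Counting regions by position over the gene left 7 H3K4me3 regions with osimertinib and 4 H3K9me3 regions with vehicle. Equal numbers of the strongest regions left 1 KDM1A region with osimertinib. Weighting by the label gave an H3K4me3 ratio of osimertinib to vehicle of 8, and this weighting was chosen after seeing the data, as were the shares of the list. The H3K4me1 ratio ranged from 1.05 with that weighting to 2.35 for shares. With promoters within 1 kb, H3K4me3 with osimertinib and H3K4me1 with either treatment had 1 promoter region, and H3K9me3 with vehicle and KDM1A with osimertinib had 0. At an overlap of 1000 bp, 2 H3K4me3 osimertinib regions, and 11 H3K4me1 regions of either treatment, were shared with the other treatment. Between targets, that overlap left 7 H3K4me1 regions with H3K4me3 under osimertinib, 1 between H3K4me3 and KDM1A under osimertinib in either direction, 0 between H3K4me3 and H3K9me3 under vehicle, and 1 between H3K4me1 and H3K9me3 under vehicle. Within 1 kb, the last became 5 in either direction. A stricter overlap or a narrower promoter can only lower a count, and a wider distance can only raise it. Why values shifted under the other alternatives was not tested. No paired analysis was possible because each group has 1 library, and no library could be left out.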
